A study of Mus musculus with 2 samples.

Results

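Bulk libraries of microglia sorted from sham brains held abundant transcripts of the immunoglobulin heavy chain gene Ighm. The light chain gene Igkc and the lineage factor genes Pax5 and Ebf1 had between 0 and 44 counts per library. The genes described here are 9 B lineage and immunoglobulin genes of the 53801 genes counted. They were chosen by gene symbol, after the counts of Ighm and of B cell genes in these same 2 libraries had been seen. They are Ighm and Ighd (heavy chains), Igkc (light chain), Jchain, Cd79a and Cd79b (receptor signalling chains), Ms4a1 (a surface protein), and Pax5 and Ebf1 (lineage factors). Because the counts themselves led to this choice, the levels of these genes are a description and were not tested.

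RNA-seq was performed on CD11c–Ly6G–CD11b+CD45low cells sorted from the left brain hemisphere, 3 days after sham surgery. Both libraries came from Cx3cr1(CreER/wt) mice, 1 mouse each, which the series describes as male, 8 to 10 weeks old and on a C57BL/6 background, while the study's methods give both sexes and another age range. These animals carry CreER in place of 1 Cx3cr1 allele, have no floxed gene, and received tamoxifen at 75 mg/kg daily for 4 days, starting 14 days before surgery. Cre driven by Cx3cr1 marks microglia and other cells that express Cx3cr1, so the mice are wild-type controls for conditional knockouts and lack 1 intact Cx3cr1 allele. The samples are titled as sham, although their treatment is labelled as none, and libraries made after ischemic stroke were not used here.

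A B cell makes its antigen receptor from a heavy chain and a light chain. In the heavy chain locus, a V, a D and a J segment are joined by DNA recombination and spliced to a constant region, first that of IgM (Ighm) and IgD (Ighd). The receptor reaches the cell surface with CD79a and CD79b, which carry its signal into the cell, and the transcription factors EBF1 and PAX5 set up and keep the B cell identity. The locus can also be transcribed before recombination, from the D segment nearest to the J segments and from the enhancer between the J segments and Ighm, into RNA without a V segment.

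The sequences below are shown because most counts at this locus fell on the constant region, and the J segments just upstream had counts in both libraries. The V segments, farther upstream, had 16 counts in library 1 and 333 in library 2, against 99 and 284 on the J segments. They were read from the GENCODE M21 transcripts (GRCm38), 5′ to 3′. Capitals mark the letters TGGGGNNNAGGNAC, which are those that the 4 heavy chain J segments share over the conserved tryptophan-glycine codons. The J segments lie on the minus strand of chromosome 12, from chr12:113428514-113428567 (Ighj4) to chr12:113429781-113429833 (Ighj1), and Ighd4-1 at chr12:113430528-113430538.
Ighd4-1: ctaactgggac
Ighj1: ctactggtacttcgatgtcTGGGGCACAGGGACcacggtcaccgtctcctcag
Ighj2: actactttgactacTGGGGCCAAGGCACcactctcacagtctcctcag
Ighj3: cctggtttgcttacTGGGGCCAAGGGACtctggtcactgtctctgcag
Ighj4: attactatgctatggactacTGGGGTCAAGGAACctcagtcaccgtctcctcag
The 4 heavy chain J segments hold these letters by construction, against 0 of 5 kappa and 0 of 5 lambda J segments. This comparison is no test, because the letters were read from the heavy chain segments. Searched on both strands, the letters were found in 0.0122% of 32851 windows of 54 bases, 1 in each RefSeq promoter (GRCm38.p6). Compared from their 3′ ends, the J segments were 62.5% to 75% identical in pairs. The first 60 bases of the constant regions of Ighm and of Igkc show the rows with the most and with few of the constant region counts.
Ighm: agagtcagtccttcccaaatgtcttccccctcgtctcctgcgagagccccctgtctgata
Igkc: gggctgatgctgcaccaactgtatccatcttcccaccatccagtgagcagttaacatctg

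Library 1 held 23381026 counts on genes and library 2 held 41142609. Levels are counts scaled to 1000000 counts on genes (CPM). For a gene with 0 counts, a fixed limit worth 3 counts is used, 0.128 CPM in library 1 or 0.0729 CPM in library 2. The exact 95% Poisson upper limit of 0 counts is higher, 0.158 CPM in library 1. Intervals are exact 95% Poisson or binomial intervals unless named otherwise, and they cover counting error only, without the spread between mice. Copies made by PCR were not removed with molecular identifiers, so the intervals may be too narrow even for counting error. The 10 microglia markers summed to 37708 and 43066 CPM, and all 10 were counted in both libraries. Neutrophil markers stood apart, at 4766 CPM over 12 genes in library 1 against 58473 in library 2, although the gate left out Ly6G+ cells. A gene is called counted where both libraries gave it 10 counts or more, which was the case for 25.0% of all genes and for 3 of the 9 genes described here, Ighm, Ighd and Cd79b. The other 6 genes stayed under this limit in at least 1 library, and each had at least 1 count in library 2. All genes include pseudogene, miRNA and immunoglobulin segment rows, so 25.0% is not a background matched to lists of named genes.

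Ighm encodes the constant region of the IgM heavy chain (chromosome 12 of GRCm38, 113418558 to 113422730, minus strand, 6 exon blocks of 1886 bases). Its counts were 12094 and 29632, or 517 CPM (508 to 527) in library 1 and 720.2 CPM (712 to 728) in library 2. The mean was 619 ± 144 CPM (SD, n = 2 libraries). Both libraries were high: divided by exon length, the level was 274 and 382 CPM per kilobase, above 98.8% and 99.1% of the counted genes. The 3 genes closest to Ighm in this per-length level over the 2 libraries were Slc2a5, Trem2 and Arf1. Slc2a5, which encodes a fructose transporter, had 276 and 366 CPM per kilobase, and Trem2, a receptor gene of microglia, had 281 and 356. With the longest transcript as the length, Capza2, Otulinl and Slc2a5 were closest. With 2 libraries, such closeness describes a level and not a shared pattern.

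Ighd, which encodes the constant region of IgD (chromosome 12, 113406604 to 113416324), lies directly downstream of Ighm and is made by splicing from the same primary transcript. It had 406 and 978 counts, or 17.4 CPM (15.7 to 19.1) in library 1 and 23.8 CPM (22.3 to 25.3) in library 2. The mean was 20.6 ± 4.53 CPM (SD, n = 2). Per exon length, Ighm was 30.0-fold higher than Ighd in library 1 (27.2 to 33.2) and 30.5-fold higher in library 2 (28.6 to 32.6). Ighd took 3.25% of the counts of both genes together in library 1 and 3.20% in library 2, with Wilson intervals of 2.95% to 3.57% and 3.00% to 3.40%. The proportion of Ighd to Ighm thus differed by less than counting error between the mice.

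The other 6 heavy chain constant regions, which B cells use after class switching, had few or no counts. Ighg2b had 27 and 19 counts, enough to be called counted. Its level was lower in library 2, at 1.15 and 0.462 CPM. Ighg1, Ighg2c, Ighg3, Ighe and Igha had 0 counts in both. No row of the count tables overlaps Ighm or Ighd. Among the 5 rows on each side of Ighm, only Ighd and Ighj4 had more than 10 counts in library 2. Gm9134 had 3 and 10 counts, and Gm22175, a miRNA row between Ighm and the J segments, had 2 and 1 counts.

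The 4 heavy chain J rows lie 5.78 to 7.05 kb upstream of Ighm, and all 4 had counts in both libraries, 99 and 284 in sum. Ighj1, the J segment farthest from Ighm, had 74 and 234 counts, the most of the 4. Ighj4 had 9 and 35 counts, Ighj2 had 12 and 10, and Ighj3 had 4 and 5. Scaled to depth, Ighj1 (3.16 and 5.69 CPM) and Ighj4 (0.385 and 0.851 CPM) were higher in library 2. Ighj2 (0.513 and 0.243 CPM) and Ighj3 (0.171 and 0.122 CPM) were lower there, on few counts. Ighd4-1, the D segment nearest to the J segments at 7.80 kb, had 2 and 7 counts. It was the only one of the 17 D gene rows named for the heavy chain with any count, although D rows are shorter than a read and can hold few counts. The rows of Ighj1, Ighj3 and Ighj4 are also shorter than a read, so J counts were not divided by length.

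Rows of V segments gave another picture. Of the 185 heavy chain V rows, pseudogenes included, 5 had any count in library 1 and 24 in library 2. Their sum was 16 counts in the first and 333 in the second. Set beside Ighm, V rows took 0.132% of the counts of V rows and Ighm in library 1 (Wilson interval 0.0813% to 0.215%) and 1.11% in library 2 (0.999% to 1.24%). For the J rows, the same share was 0.812% (0.667% to 0.987%) and 0.949% (0.846% to 1.07%). The share of V rows was higher in library 2, with intervals that did not overlap, while the intervals of the J rows overlapped.

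The highest V rows were the pseudogene Ighv1-41, with 10 and 108 counts, Ighv1-74 with 0 and 70, and Ighv1-52 with 0 and 23. The 13 V rows with at least 5 counts in library 2 lie 1510 to 2541 kb upstream of Ighm, a limit set after their values were seen. The 122 V rows nearer to Ighm had 0 counts in library 1 and 6 in library 2. V segments of 1 family resemble each other, so reads that map to several of them may be lost or split between rows.

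**Figure D1:**
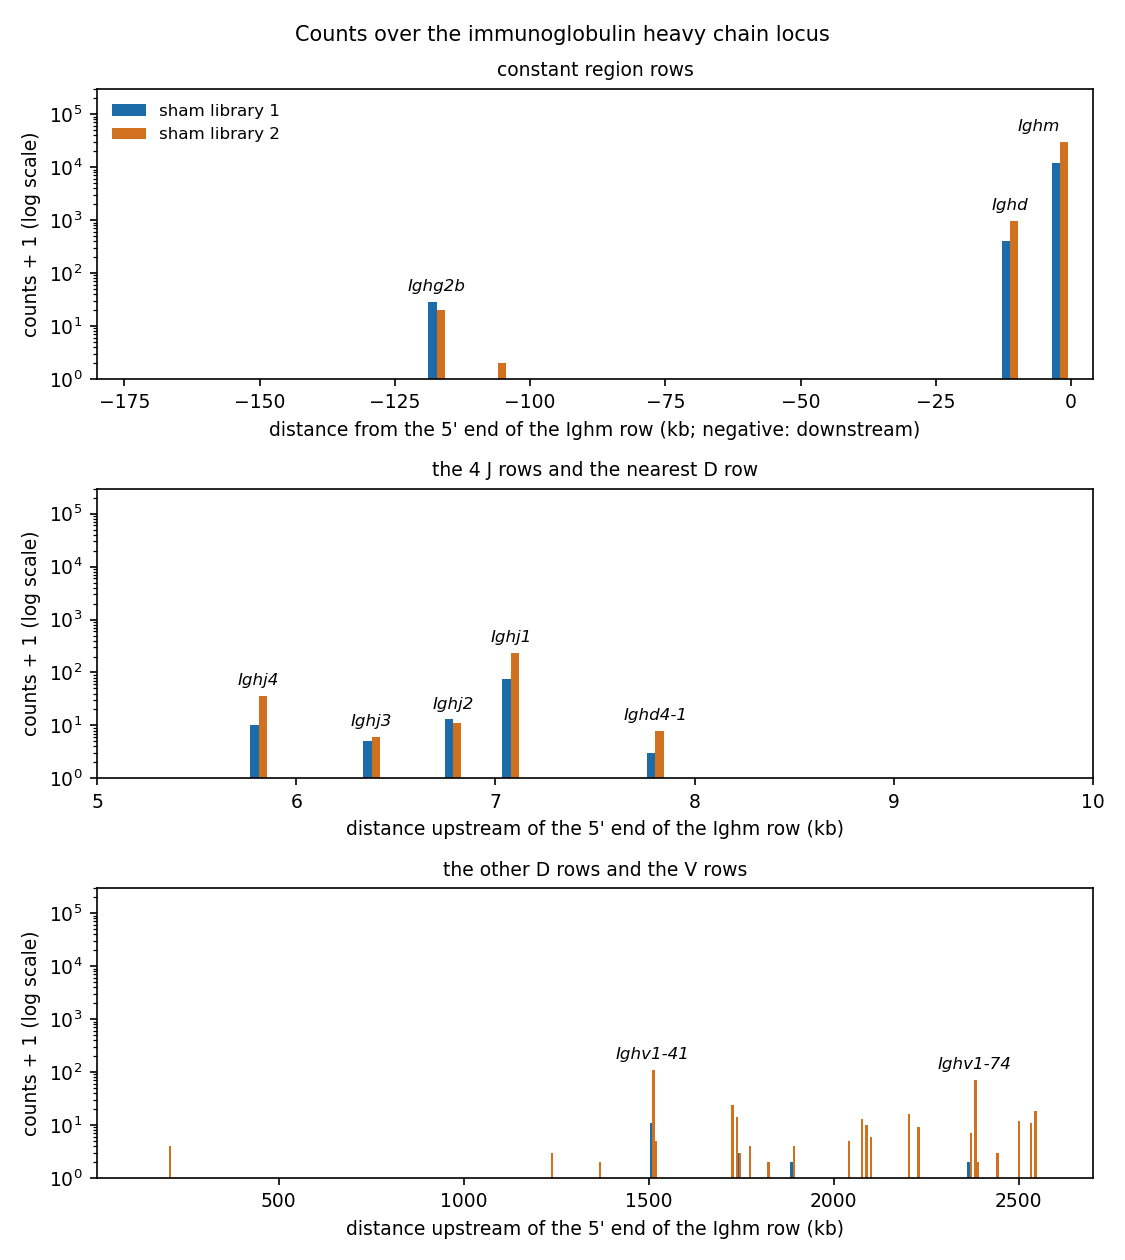
Counts plus 1 (log scale) of rows of the heavy chain locus against their distance in kb from the 5′ end of the Ighm row, with 1 bar per library and no bar for a row at 0 counts. Ighm, Ighd and the J rows had counts in both libraries, while the V rows had 16 counts in library 1 and 333 in library 2.

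Light chain transcripts were scarce. Igkc encodes the kappa constant region, the light chain of most mouse B cells (chromosome 6, 70726435 to 70726966, 1 exon of 532 bases). Only 3 and 44 counts fell on it, or 0.128 CPM (0.0265 to 0.375) and 1.07 CPM (0.777 to 1.44). Igkc took 0.0248% of the counts of Igkc and Ighm in library 1 (Wilson interval 0.00843% to 0.0729%) and 0.148% in library 2 (0.11% to 0.199%). Per exon length, Ighm was 1137-fold higher than Igkc in library 1 (389 to 5515) and 190.0-fold higher in library 2 (141 to 262). The row overlaps Gm30211 on the same strand, with 0 and 6 counts, and reads in the overlap may be left out of both.

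The lambda constant regions had counts in library 2 only. Iglc1, Iglc2, Iglc3 and Iglc4 had 0 counts in library 1 and 16, 6, 5 and 0 counts in library 2. With these included, light chain constant regions took 0.0239% of all constant region counts in library 1 and 0.231% in library 2. None of the 5 kappa or 5 lambda J rows had a count in either library. The 100 kappa V rows had 7 and 12 counts in sum, of which Igkv8-28 held 6 and 0, and the 3 lambda V rows had 0 and 20. Because these are bulk libraries, fewer cells of a type and less RNA per cell cannot be told apart.

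Jchain encodes the joining chain that links IgM and IgA into polymers and is secreted with them (chromosome 5, 88519809 to 88527891). With 0 and 3 counts, it stood in library 2 at the limit of 0.0729 CPM. Both libraries were at or under this limit, so no fold was computed.

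The signalling chains of the B cell receptor were unequal. Cd79b (chromosome 11, 106311341 to 106314762, 1431 exon bases) had 1219 and 2280 counts, or 52.1 CPM (49.3 to 55.1) in library 1 and 55.4 CPM (53.2 to 57.7) in library 2. The mean was 53.8 ± 2.32 CPM (SD, n = 2). Its per-length level of 36.4 and 38.7 CPM per kilobase was above 89.8% and 90.3% of the counted genes.

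Cd79a, whose product pairs with that of Cd79b in the receptor (chromosome 7, 24897381 to 24902197, 1457 exon bases), had 7 and 56 counts. Its level was 0.299 CPM (0.120 to 0.617) in library 1 and 1.36 CPM (1.03 to 1.77) in library 2. Per exon length, Cd79b was 177-fold higher than Cd79a in library 1 (85.8 to 442) and 41.5-fold higher in library 2 (31.8 to 55.1). No other row overlaps Cd79a or Cd79b.

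Ms4a1 encodes CD20, a surface protein of B cells (chromosome 19, 11249675 to 11266241). It had 4 and 21 counts, or 0.171 CPM (0.0466 to 0.438) and 0.510 CPM (0.316 to 0.780). Ebf1 (chromosome 11, 44617317 to 45008091) had 0 and 7 counts. The interval of its level in library 2, 0.170 CPM (0.0684 to 0.351), reached under the fixed limit of 0.128 CPM in library 1. A difference was therefore not detectable. Pax5 (chromosome 4, 44524757 to 44710487) had 0 and 1 counts. These 3 genes stayed under 1 CPM in both libraries, and Ebf1 and Pax5 were not detectable in library 1 at this depth.

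**Figure D2:**
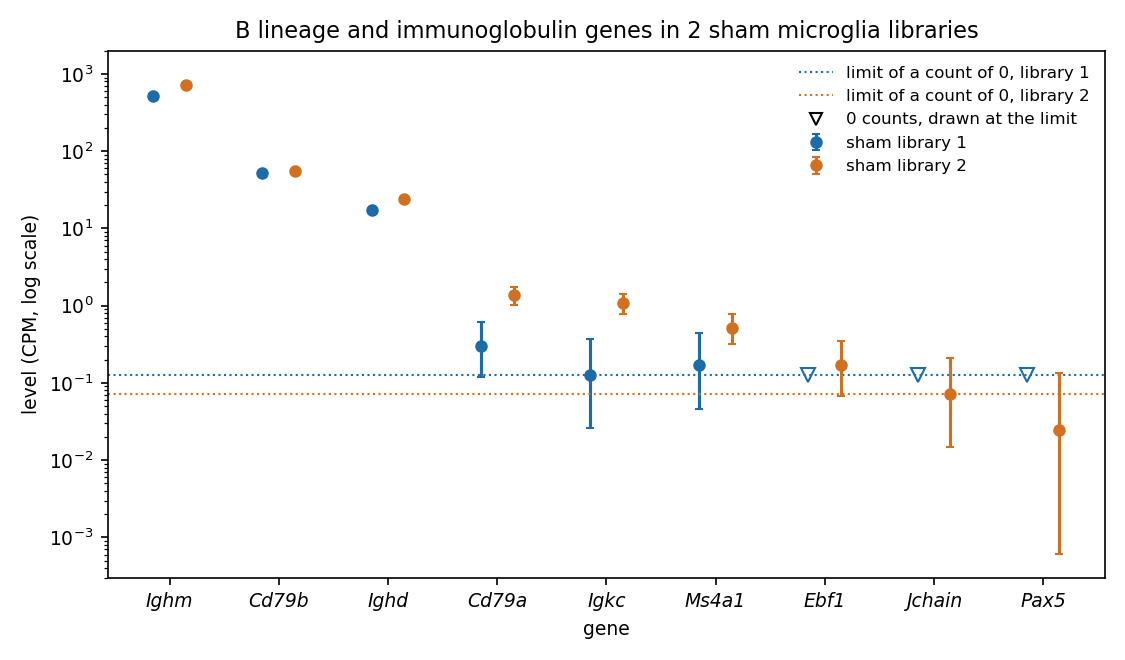
Level in CPM (log scale) of each of the 9 genes in sham library 1 and sham library 2, with exact 95% Poisson intervals as bars. Ighm, Cd79b and Ighd lie at 17.4 CPM or more in both libraries, and the other 6 genes at 1.36 CPM or less.

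Per exon length, the order of the levels was Ighm, Cd79b and Ighd in both libraries, and the intervals of these 3 genes did not overlap with those of their neighbours in the order. Igkc and Cd79a followed. Their intervals overlapped in library 1, at 0.241 and 0.205 CPM per kilobase, and did not in library 2, at 2.01 and 0.934. Ms4a1 came next in both libraries, at 0.0277 and 0.0825 CPM per kilobase. In library 1 its interval overlapped those of the 3 genes at 0 counts. In library 2 its interval overlapped that of Jchain, and those of Jchain, Ebf1 and Pax5 overlapped in turn.

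Between the 2 mice, all genes of this set with counts were at a higher CPM in library 2, by different amounts. Among the 13445 counted genes, the median log2 ratio of library 2 over library 1 was −0.26, 5.74% of genes were more than 2-fold higher and 25.9% more than 2-fold lower. With TMM scaling that median was −0.0053, with 1193 genes higher and 2606 lower in place of 772 and 3485. Relative to the median of all counted genes, the log2 ratio was 0.74 for Ighm, 0.72 for Ighd and 0.35 for Cd79b. Of the 3 counted genes of the set, none was past 2-fold. Ighm was 1.39-fold higher (1.36 to 1.42) and Ighd 1.37-fold higher (1.22 to 1.54). For Cd79b the ratio was 1.06 (0.991 to 1.14) by CPM, an interval that includes 1, but with TMM scaling its log2 ratio was 0.35 (0.24 to 0.45) in place of 0.09, an interval without 0. In either direction, a ratio at least as far from 1 as that of Ighm was found in 57.8% of the counted genes. For Cd79b, that share was 91.7%. Genes with a higher ratio made up 15.8% of the counted genes for Ighm and 34.3% for Cd79b. These ratios compare 2 mice of 1 group, have no replicate and were not tested.

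The scarce genes had larger ratios on few counts. Igkc was 8.33-fold higher in library 2 (2.67 to 42.0), Cd79a 4.55-fold higher (2.07 to 11.8) and Ms4a1 2.98-fold higher (1.01 to 12). Heavy chain V rows in sum were 11.8-fold higher (7.18 to 20.9), and kappa and lambda rows 5.85-fold higher (3.06 to 12.6). The J rows in sum, at 1.63-fold (1.29 to 2.07), lay closer to Ighm, with most of their counts on Ighj1. Heavy V rows in sum, kappa and lambda rows in sum, Igkc and Cd79a thus had intervals above that of Ighm. The interval of the J rows in sum included the ratio of Ighm. Not all light chain rows were higher in library 2: the kappa V rows alone had 0.299 CPM in library 1 and 0.292 in library 2.

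Markers of other cells also differed between these libraries. Of 12 neutrophil genes, 11 were more than 2-fold higher in library 2, against 5.74% of all counted genes. Their median log2 ratio was 3.38, against −0.26 for all counted genes. Dividing cell markers were 19.2 CPM and 92.3 CPM over 5 genes, erythroid markers 0.214 and 15.0 CPM over 6 genes, and basophil or mast cell markers 0.0855 and 170.5 CPM over 6 genes. The part of such cells in the levels and ratios of Ighm, the other genes of the set and the V rows was not tested. T cell markers summed to 5.60 and 6.05 CPM over 9 genes, with 104 and 115 counts for Cd4, 3 and 109 for Cd3d, and 0 in both for Cd3e and Cd8a. The constant regions of the T cell receptor, Trac, Trbc1 and Trbc2, had 1 count in library 1 and 3 in library 2 in sum.

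**Figure D3:**
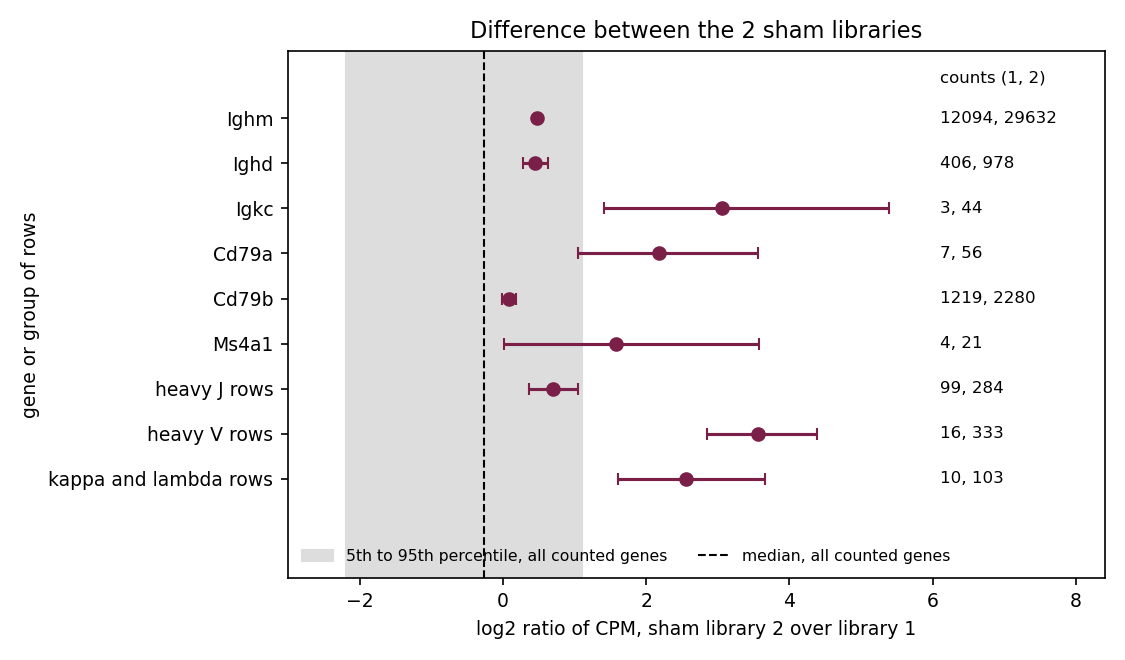
Log2 ratio of CPM, library 2 over library 1, for the 6 genes with counts in both libraries and for 3 groups of rows, with exact 95% intervals, over the 5th to 95th percentile (grey, −2.19 to 1.11) and the median (dashed, −0.26) of all counted genes. Ighm, Ighd, Cd79b and the J rows lie within the grey range. The points of the V rows (3.56), Igkc (3.06), the kappa and lambda rows (2.55), Cd79a (2.18) and Ms4a1 (1.58) lie above it.

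Genes that work with the B cell receptor were next set beside these levels. Of 11 signalling genes known best from B cells, 5 were counted, against 25.0% of all genes. In this list, 3 genes had no more than 3 counts in either library. Blnk, the adaptor that links the receptor to its downstream enzymes, had 253 and 394 CPM. Fcrl1, a receptor of the Fc receptor-like family, had 86.7 and 115 CPM, and Bank1, a scaffold protein gene, 79.6 and 86.9 CPM. Cd72 and Cd22, which encode inhibitory co-receptors, had 16.9 and 18.2 CPM and 13.1 and 7.83 CPM. None of these 5 genes was past 2-fold between the libraries, against 5.74% of all counted genes higher and 25.9% lower. Their median log2 ratio was 0.13.

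Other genes of this list were near 0. Fcrla had 0 and 23 counts and Cr2, the complement receptor of B cells, 2 and 5. Blk and Fcer2a had 0 and 1 counts each, and Fcmr, which encodes an IgM receptor, 0 and 2.

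Signalling genes that both B cells and myeloid cells use were abundant. All 8 genes of that list were counted, against 25.0% of all genes. The highest was Cd81, which encodes a tetraspanin, with 3821 CPM and 3799.6 CPM. Inpp5d, which encodes the inhibitory phosphatase SHIP1, had 1113 and 233 CPM, and the kinase gene Lyn 816 and 798. The kinase genes Syk (191 and 67.1 CPM) and Btk (100.2 and 126 CPM) lay on opposite sides of an equal level. Of the 8 genes, 4 were more than 2-fold lower in library 2 (Inpp5d, Plcg2, Pik3ap1 and Syk), against 25.9% of all counted genes, and the median log2 ratio was −0.72 against −0.26.

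Genes that build a B cell receptor before and during recombination were not counted in any case. Vpreb1, Vpreb2, Vpreb3 and Igll1 form the surrogate light chain or resemble it, and Rag1, Rag2 and Dntt cut and extend the segments. Of these genes, 0 of 7 reached 10 counts in both libraries, against 25.0% of all genes. Vpreb1 had 1 and 27 counts, Vpreb3 had 0 and 10, and Igll1 had 0 and 6. Rag1 had 0 counts in both libraries, Rag2 had 1 and 0, and Dntt 0 and 1. The upper limit for Rag1 was thus 0.128 CPM in the first library and 0.0729 in the second.

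Transcription factors were also mixed. Of 6 factors known best from lymphocytes, 3 were counted, against 25.0% of all genes. Bach2 had 21.1 and 16.9 CPM, Bcl11a 1.88 and 1.46 CPM, and Spib 1.03 and 0.438 CPM. Ikzf3 had 6 and 20 counts, Pou2af1, a coactivator of immunoglobulin promoters, 0 and 2, and Lef1 1 and 0. All 8 factors shared with myeloid cells were counted, among them Irf8 (1000 and 590.3 CPM) and Spi1, which encodes PU.1 (699.7 and 807 CPM). Of these 8, 5 were more than 2-fold lower in library 2, against 25.9% of all counted genes, and their median log2 ratio was −1.32. With TMM scaling, chosen for this list after its values were seen, 4 of the 8 passed, against 19.4% of all counted genes, and Ets1 (−1.01 by CPM) did not.

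Receptors for B cell homing and survival were mixed. Tnfrsf13b, which encodes the TACI receptor, had 215 and 164 CPM, and Il7r had 26.4 and 30.8 CPM. Cxcr5 had 13 and 26 counts, and Tnfrsf13c, the BAFF receptor gene, 4 and 8.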

How the data were processed

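The authors mapped paired-end reads of SMART-Seq HT cDNA to GRCm38 with HISAT2, made gene counts with HTSeq and deposited the raw counts without normalization. Versions, annotation release and strand setting are not given in the sources used here. Symbols, exon lengths and transcript sequences came from GENCODE M21 (GRCm38), which matched 53620 of 53801 genes, and the coordinates of all 9 members were the same in both. File starts were shifted to count from 1.

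The members and gene lists were chosen with earlier results of these data known, and levels and ratios were not tested. Named genes were the 9 members, the highest and the defining genes of each list, the highest immunoglobulin rows, 5 rows on each side of Ighm and the 3 genes closest to it per exon length. Counts were divided by all counts on genes (CPM). Each library is 1 mouse. Depth was 23381026 and 41142609 counts. Scaling alternatives were TMM (edgeR 4.0.16), DESeq2 1.42.0 size factors and totals without mitochondrially encoded genes, with other filters and each library left out. The ratio step was checked on simulated counts. Tools were R 4.3.3, Python 3.11.15, scipy 1.17.1 and matplotlib 3.10.9. 1 gene of the signalling list is not reported here by name.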

Additional observations from a re-analysis of the deposited data

How the results depend on the processing

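No paired analysis was possible because both libraries belong to 1 group. The log2 ratio of Ighm between the libraries was 0.48 by all counts, 0.74 with TMM library sizes and 0.75 with DESeq2 size factors. That of Cd79b was 0.09, 0.35 and 0.36, and its interval included 0 by all counts but not with TMM or DESeq2 scaling. That shift follows from the scaling, which moved the median of all counted genes from −0.26 to −0.0053 and 0.012. No ratio of the 6 genes with counts in both libraries changed direction under the 3 scalings, and all 45 alternative levels stayed within 1 SD of the 2 libraries, which leaving out a library does by construction. Of the 9 genes, 3 had at least 10 counts in both libraries, 6 had at least 1 count in both and 9 had at least 1 count in either, and without 1 library the number was 3 to 6. The first 2 changes follow from the looser filter, and the last from keeping only library 2, where 6 genes had at least 10 counts. The mean share of Igkc in Igkc plus Ighm was 0.0865%, 0.306% per kilobase of exon, because Igkc is shorter, and 0.0248% to 0.148% without 1 library. Depth limits the genes under 10 counts, and 2 mice limit every mean.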

Other observations

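Plasma cells secrete immunoglobulin and switch on genes of the secretory pathway. Of 8 plasma cell genes, 6 were counted, against 25.0% of all genes. The highest was Xbp1, a factor of the unfolded protein response that many cells use, with 606 CPM in library 1 and 565 in library 2. Txndc5 had 190.1 and 90.8 CPM. Tnfrsf17, which encodes the receptor BCMA, had 12.3 and 26.5 CPM. Sdc1, the gene of the plasma cell antigen CD138, had 4 and 2 counts, and Mzb1, a chaperone for IgM assembly, 0 and 9.

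Plasmacytoid dendritic cells share several transcripts with B cells. Of 8 of their genes, 6 were counted, against 25.0% of all genes. The highest was Tcf4 with 160.3 and 179.7 CPM. Smim5 had 1.80 and 13.6 CPM. Ccr9 had 19 and 20 counts, Ly6d had 4 and 27, and Klk1 had 0 in both. Among 4 genes whose products bind IgM, Pigr and Fcamr had 0 counts in both libraries, while Cd5l had 31 and 57 counts.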
